A study of Mus musculus with 24 samples.

Results

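The report concerns 10 mouse genes of blood vessel endothelium and its growth signals: Vegfa, Vegfb, Kdr, Flt1, Pecam1, Cdh5, Tek, Tie1, Angpt1 and Angpt2. They were chosen by name, as a set of endothelial and angiogenic genes, from the 54532 genes counted in the deposited files. The choice was made with earlier results of these data known. Each gene was found in the files by its Ensembl identifier. RNA was sequenced from left gastrocnemius muscle, the large calf muscle, of wild-type (WT) C57/BL6 mice, in 24 samples that form 6 groups of 4. All samples carry the time label 24 h. Female and male controls were sedentary and received 2 injections of 20 µl saline at pH 7.2, given 5 days apart. Female and male sedentary pain animals received acid of pH 5.0 in that volume and spacing, and the muscle was made to contract by electrical stimulation for 6 min just before the second injection. Female and male active pain animals had running wheels for 8 weeks and then went through the same pain procedure. Every group therefore had 2 injections into the muscle that was sequenced. No labelled group had acid or contraction alone, so these cannot be told apart, and no group ran without the pain procedure, so running can be compared only between animals that went through it. The labels give neither ages nor a statement that each sample is a separate animal, and the p-values measure the spread between these samples.

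Blood vessels are lined by endothelial cells, and working muscle holds a dense capillary bed. Vascular endothelial growth factors are secreted by muscle fibres and other cells and act on tyrosine kinase receptors of the endothelium. The angiopoietins form a parallel system: Angpt1, made largely by cells around the vessel, activates the receptor Tek and stabilises vessels, while Angpt2, released by endothelium, can oppose it in a context-dependent way. Pecam1 and Cdh5 are adhesion molecules at the borders between endothelial cells and serve as markers of the cell type.

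In the deposited counts, total reads assigned to genes ranged from 17612139 to 34039699 a sample. All 10 genes passed the filter on low counts in both sexes. Levels are given as CPM, read counts scaled to a common library size, after TMM scaling, which corrects library size for differences in composition. The skeletal muscle label held: summed CPM of 10 muscle fibre genes lay between 163685 and 243621 in female controls and between 108975 and 216176 in female sedentary pain samples. Several libraries stood apart. The 4 female sedentary pain samples were spread widely on the first principal component of all genes, and male sedentary pain replicate 1, male active pain replicate 2 and female active pain replicate 3 lay apart from their groups on it. Without female active pain replicate 3 no gene of the set was called in the 2 comparisons of female active pain, as with it. A number in the library names is 20 or lower for replicates 1 and 2 and 25 or higher for replicates 3 and 4. The labels do not say what it stands for, so values within each range of library numbers are given beside the pooled ones.

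Levels can be compared between genes only per length, here as CPM per kilobase of exon. In female controls Vegfb had the highest level, 62.9 ± 5.53 CPM per kilobase (mean ± SD, n = 4), followed by Vegfa at 16.9 ± 1.76, Cdh5 at 13.8 ± 1.09 and Pecam1 at 9.06 ± 0.858. The receptors came next: Tie1 at 5.04 ± 0.431, Tek at 3.77 ± 0.237, Kdr at 3.6 ± 0.524 and Flt1 at 2.57 ± 0.180 CPM per kilobase. Angpt1 at 2.08 ± 0.203 and Angpt2 at 0.851 ± 0.185 CPM per kilobase were the lowest. The only neighbours in this order whose samples overlapped were Tek and Kdr. Vegfa and Vegfb thus had more transcript per length than Kdr and Flt1 in female control muscle, while Angpt1 and Angpt2 had less than Tek. In male controls the order was the same at both ends, with Vegfb at 54.3 ± 1.62, Vegfa at 20.5 ± 2.12 and Cdh5 at 14.5 ± 3.19 CPM per kilobase at the top and Angpt1 at 1.44 ± 0.108 and Angpt2 at 0.771 ± 0.159 at the bottom. There the samples of Vegfa overlapped those of Cdh5, and Tek, Tie1 and Kdr overlapped their neighbours. In female sedentary pain muscle Vegfa, at 7.77 ± 3.49 CPM per kilobase, stood behind Pecam1 at 9.98 ± 1.37 and Cdh5 at 8.39 ± 2.04. Every pair of neighbours below Vegfb overlapped in that group. In the other 3 groups Vegfb, Vegfa, Cdh5 and Pecam1 were the highest 4, in that order.

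**Figure D1:**
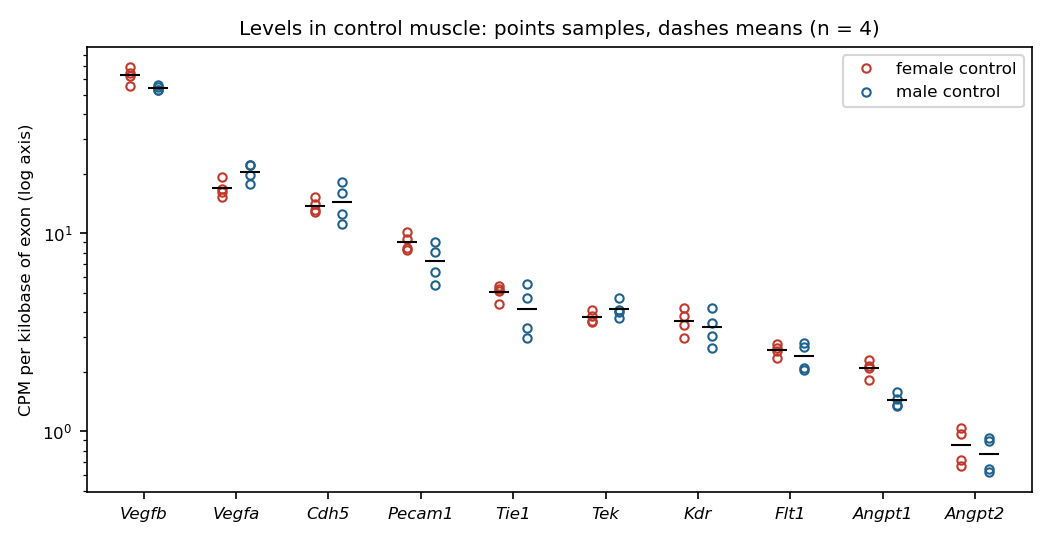
Levels of the 10 genes in female and male controls, in CPM per kilobase of exon on a log axis, with points for samples and dashes for group means (n = 4). Vegfb lies highest and Angpt2 lowest in both sexes.

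For the ligand Vegfa and its receptors Kdr and Flt1, whose values the female comparison turns on, the 250 bases before the transcription start in RefSeq (GRCm38.p6) are shown, 5′ to 3′ on the strand of the gene. Capitals mark matches, on either strand, to 3 motifs: GGGCGG, the site known for Sp1 factors, which reads CCGCCC on the opposite strand; AGGAAG, which holds the core bound by ETS factors; and TATAAA, an element of core promoters. The windows are chr17:46032378-46032627 for Vegfa, chr5:75978456-75978705 for Kdr and chr5:147726012-147726261 for Flt1, all on the minus strand.
Vegfa: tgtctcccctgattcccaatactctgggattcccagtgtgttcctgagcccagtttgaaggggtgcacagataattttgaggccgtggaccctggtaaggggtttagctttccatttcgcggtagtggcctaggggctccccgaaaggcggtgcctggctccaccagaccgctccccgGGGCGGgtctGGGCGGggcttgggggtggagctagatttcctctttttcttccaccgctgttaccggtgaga
Kdr: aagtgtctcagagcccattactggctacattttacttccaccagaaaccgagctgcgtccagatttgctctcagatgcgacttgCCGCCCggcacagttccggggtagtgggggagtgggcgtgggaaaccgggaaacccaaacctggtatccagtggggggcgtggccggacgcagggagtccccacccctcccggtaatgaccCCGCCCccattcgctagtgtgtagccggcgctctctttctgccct
Flt1: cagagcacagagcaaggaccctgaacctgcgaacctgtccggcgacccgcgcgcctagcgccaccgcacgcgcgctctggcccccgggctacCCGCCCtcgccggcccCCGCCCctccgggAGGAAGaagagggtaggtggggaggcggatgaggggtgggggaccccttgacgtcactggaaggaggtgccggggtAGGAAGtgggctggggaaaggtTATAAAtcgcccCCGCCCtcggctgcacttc

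All 3 windows held GGGCGG, with 2 matches in Vegfa, 2 in Kdr and 3 in Flt1. That motif occurs in 32.7% of the 32851 promoter windows of this length in the table. Flt1 alone of the 3 held AGGAAG, with 2 matches, and TATAAA, which are present in 29.5% and 12.4% of all windows. Also searched on both strands were CGGAAG, another ETS core found in 13.6% of windows, and ACGTG, the core of the hypoxia response element found in 16.6%, and neither had a match in these 3 windows. No 2 marked matches overlap. Of the 10 genes, 6 had an entry in the table (Vegfa, Vegfb, Kdr, Flt1, Tek and Tie1), Vegfa with 2 starts of which the first is shown. The window of the second Vegfa start held 1 match to ACGTG, at -211 from that start on the opposite strand. Pecam1, Cdh5, Angpt1 and Angpt2 had none.

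Female sedentary pain against female control was the comparison in which genes of the set passed the test: Vegfa, Kdr, Flt1 and Cdh5 fell, and none rose. In edgeR's quasi-likelihood test, 4 of the 10 genes had a Benjamini-Hochberg adjusted p under 0.05, beside 33.5% of all genes tested, and 13.9% of all genes were called in the lower direction. Control and pain samples lay fully apart in CPM for 4 of the 10 (Vegfa, Flt1, Cdh5 and Angpt1), beside 26.3% of all genes. The median log2 difference of the 10 genes was -0.61, and that of all genes was -0.02. Since whole muscle was sequenced, a smaller share of the cells that make a transcript cannot be told apart from less RNA per cell. This holds for each of these values, and for Vegfa and Angpt1 those cells are not only endothelial. The 37 mitochondrial genes took 8.22%, 3.85%, 5.86% and 2.75% of counts in female sedentary pain replicates 1 to 4 and 8.59% to 11% in female controls, with every pain sample below every control and replicate 4 the lowest. With those genes left out of the counts the same 4 genes were called, with Vegfa at -1.16 on the log2 scale, and what part the state of the tissue or RNA behind that share had in the fall was not tested.

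Vegfa, the main growth factor for capillaries (ENSMUSG00000023951, chromosome 17, 46016993 to 46032369, minus strand), had 65.2, 82.9, 71.8 and 69.6 CPM in female control replicates 1 to 4. In female sedentary pain the values were 52.5, 32, 32.5 and 16 CPM. All 4 pain samples lay below all 4 controls, with replicate 4 the lowest and replicate 1 the nearest to the controls. The fitted difference was -1.14 ± 0.28 on the log2 scale (SE, 95% interval -1.75 to -0.53), a level 2.20-fold lower (edgeR adjusted p = 0.0125). Within replicates 1 and 2 alone the difference was -0.81 (edgeR adjusted p = 0.172), and within replicates 3 and 4 alone it was -1.56 (edgeR adjusted p = 0.0231).

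Vegfb, a family member that binds Flt1 but not Kdr and is known for roles in fatty acid uptake (ENSMUSG00000024962, chromosome 19, 6982473 to 6987651, minus strand), had 99.5, 104, 111 and 89.5 CPM in female controls. The sedentary pain samples had 93.7, 104, 58.3 and 60.0 CPM. Replicates 1 and 2 lay among the controls, and replicates 3 and 4 lay below all of them. The pooled difference of -0.37 ± 0.19 (log2) did not pass (edgeR adjusted p = 0.132). By range of library numbers it was -0.05 (edgeR adjusted p = 0.891) in replicates 1 and 2 and -0.77 (edgeR adjusted p = 0.0294) in replicates 3 and 4.

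Kdr (VEGFR2, the main signalling receptor for Vegfa; ENSMUSG00000062960, chromosome 5, 75932827 to 75978458, minus strand) had 26.7, 34.4, 37.8 and 31.1 CPM in female controls and 26.9, 16.6, 14.4 and 11.2 CPM in sedentary pain. Pain replicate 1 reached the lowest control, and the other 3 lay below all controls. The difference was -0.93 ± 0.28 (log2, 95% interval -1.54 to -0.31), 1.90-fold lower (edgeR adjusted p = 0.0285). It was -0.49 in replicates 1 and 2 alone (edgeR adjusted p = 0.309) and -1.44 in replicates 3 and 4 alone (edgeR adjusted p = 0.0354). The call depended on single libraries: it was lost in 6 of the 12 fits that left out 1 sample, with adjusted p of 0.0557, 0.0586 and 0.0811 without pain replicates 2, 3 and 4, and 0.0618, 0.0564 and 0.0521 without control replicates 2, 3 and 4.

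Flt1 (VEGFR1, which binds Vegfa tightly, signals weakly and also has a soluble form that acts as a trap; ENSMUSG00000029648, chromosome 5, 147561604 to 147726011, minus strand) had 31.6, 34.5, 35.5 and 37.4 CPM in female controls. In sedentary pain it had 26.6, 22.0, 20.9 and 17.3 CPM. The groups did not overlap, and the controls lay close together. The difference was -0.70 ± 0.16 (log2, 95% interval -1.04 to -0.35), 1.62-fold lower (edgeR adjusted p = 0.00879), which was the smallest adjusted p of the 10 genes. The within-range differences were -0.45 for replicates 1 and 2 (edgeR adjusted p = 0.251) and -0.94 for replicates 3 and 4 (edgeR adjusted p = 0.0266). Counts per gene do not separate the soluble from the membrane form.

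Between the receptors the ratio of Flt1 to Kdr (log2) averaged 0.11 in female controls, where the highest sample was 0.27, 0.39 in sedentary pain and 0.44 in active pain. In each of the female pain groups 3 of 4 samples lay above all controls, at 0.40, 0.54 and 0.62 in sedentary and 0.30, 0.55 and 0.78 in active animals, and 1 lay among them. In males it averaged 0.10 in controls, 0.17 in sedentary pain and 0.07 in active pain. The ratio carries no test, and the groups overlapped.

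**Figure D2:**
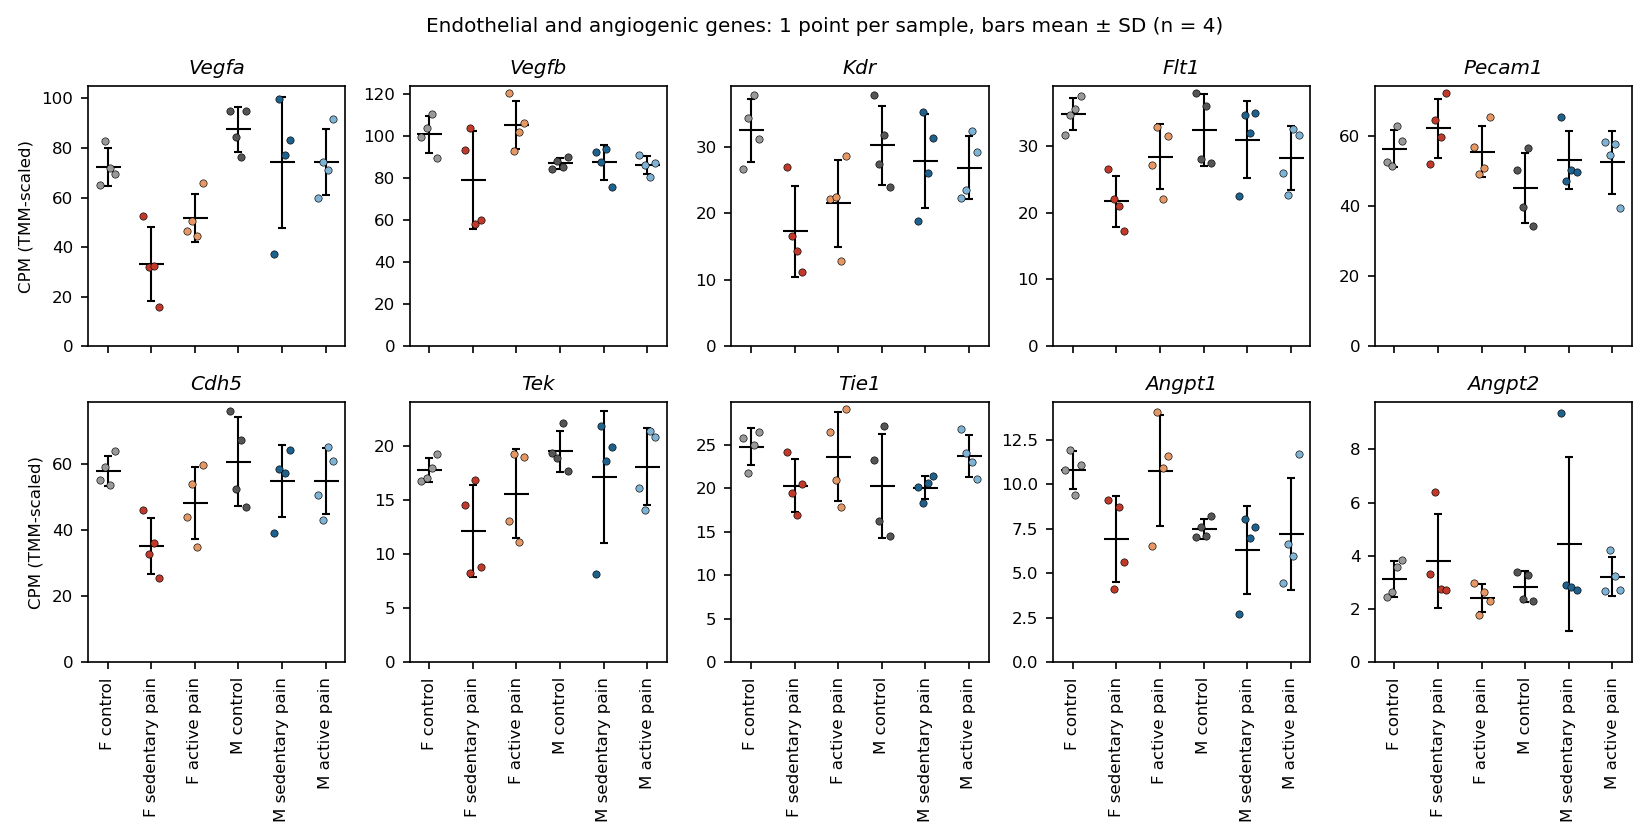
TMM-scaled CPM of each of the 10 genes in every sample of the 6 groups (F female, M male), with points for samples and bars for the mean ± SD (n = 4), each axis from 0. Female sedentary pain samples of Vegfa, Flt1, Cdh5 and Angpt1 lie below all female controls, and the male groups of every gene overlap.

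Cdh5 (VE-cadherin, the adhesion molecule of endothelial adherens junctions; ENSMUSG00000031871, chromosome 8, 104101625 to 104144511, plus strand) had 55.3, 59.0, 53.6 and 63.9 CPM in female controls and 46.3, 32.8, 36.2 and 25.7 CPM in sedentary pain. Every pain sample lay below every control. The difference was -0.73 ± 0.20 (log2, 95% interval -1.16 to -0.30), 1.66-fold lower (edgeR adjusted p = 0.0177). Without pain replicate 4 the adjusted p was 0.0503, and within each range of library numbers the difference was -0.54 (edgeR adjusted p = 0.236) and -0.94 (edgeR adjusted p = 0.0692).

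Pecam1 (CD31; ENSMUSG00000020717, chromosome 11, 106654217 to 106750628, minus strand) sits at the same cell borders as Cdh5 but is also carried by platelets and many leukocytes. It had 52.7, 51.5, 63.0 and 58.6 CPM in female controls and 52.1, 64.6, 59.7 and 72.4 CPM in sedentary pain. Pain replicates 2 and 4 lay above all controls and the other 2 among them, and replicate 4, the lowest sample for Cdh5, was the highest for Pecam1. The difference was 0.12 ± 0.13 (log2, 95% interval -0.17 to 0.41, edgeR adjusted p = 0.482), an interval that holds neither the Cdh5 estimate nor those of Vegfa, Kdr and Flt1. The summed CPM of 12 leukocyte and macrophage genes was 428, 762, 3722 and 5059 in these 4 pain samples, against 86.5 to 189 in controls. None of the 12 was at 0 in any group. What part leukocyte RNA had in the Pecam1 level was not tested.

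Tek (Tie2, the angiopoietin receptor; ENSMUSG00000006386, chromosome 4, 94739289 to 94874976, plus strand) had 16.8, 17.0, 18 and 19.2 CPM in female controls and 14.6, 8.23, 16.8 and 8.78 CPM in sedentary pain. Pain replicates 2 and 4 lay at about the same low level, and replicate 3 reached the controls. The difference of -0.57 ± 0.25 (log2, 95% interval -1.11 to -0.02) did not pass after adjustment (edgeR adjusted p = 0.0935). Tie1, a related receptor that binds no angiopoietin by itself and modulates Tek (ENSMUSG00000033191, chromosome 4, 118471191 to 118490061, minus strand), had 25.8, 21.7, 25 and 26.5 CPM in controls and 24.2, 19.5, 16.9 and 20.6 CPM in sedentary pain. Its groups overlapped, and the difference was -0.30 ± 0.16 (log2, edgeR adjusted p = 0.159).

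Angpt1 (ENSMUSG00000022309, chromosome 15, 42424723 to 42676977, minus strand), the activating ligand of Tek, had 10.8, 11.9, 9.41 and 11.1 CPM in female controls and 9.15, 4.14, 8.71 and 5.64 CPM in sedentary pain. The groups did not overlap, but pain replicates 1 and 3 lay just under the lowest control. The difference of -0.66 ± 0.27 (log2, 95% interval -1.25 to -0.06) did not pass (edgeR adjusted p = 0.0790). Its exons share 737 bases with the antisense gene Gm17473, which had only 166 counts over all 24 samples.

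Angpt2 (ENSMUSG00000031465, chromosome 8, 18690263 to 18741562, minus strand), the antagonist in many settings, lies within Mcph1 on the opposite strand without shared exon bases. It had 2.47, 2.65, 3.59 and 3.85 CPM in female controls and 3.33, 6.42, 2.75 and 2.72 CPM in sedentary pain. Only pain replicate 2 lay above the controls. The difference was 0.24 ± 0.30 (log2, edgeR adjusted p = 0.531), and without that library it was -0.11 (edgeR adjusted p = 0.737). The estimate was 0.91 within replicates 1 and 2 and -0.45 within replicates 3 and 4, so the sign rested on 1 library.

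The log2 ratio of Angpt2 to Angpt1 was -2.10, -2.14, -1.37 and -1.51 in female controls and -1.44, 0.62, -1.64 and -1.04 in female sedentary pain. In male controls it was -1.03, -1.65, -1.09 and -1.81, and in male sedentary pain 1.76, -1.45, -1.28 and -1.45. Of all 24 samples only female sedentary pain replicate 2 and male sedentary pain replicate 1 had more Angpt2 than Angpt1, on counts not divided by length. The same 2 libraries had the highest summed CPM of 6 neutrophil genes, 238 and 280. Next were female active pain replicate 3 at 108, with a ratio of -2.01, and male active pain replicate 2 at 71.3, with -0.64. Female controls had neutrophil sums of 0.859 to 3.73 and male controls 0.594 to 5.32. Ly6g, a defining neutrophil gene, was at 0 in all male controls. The part of neutrophil RNA in these ratios was not tested.

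**Figure D3:**
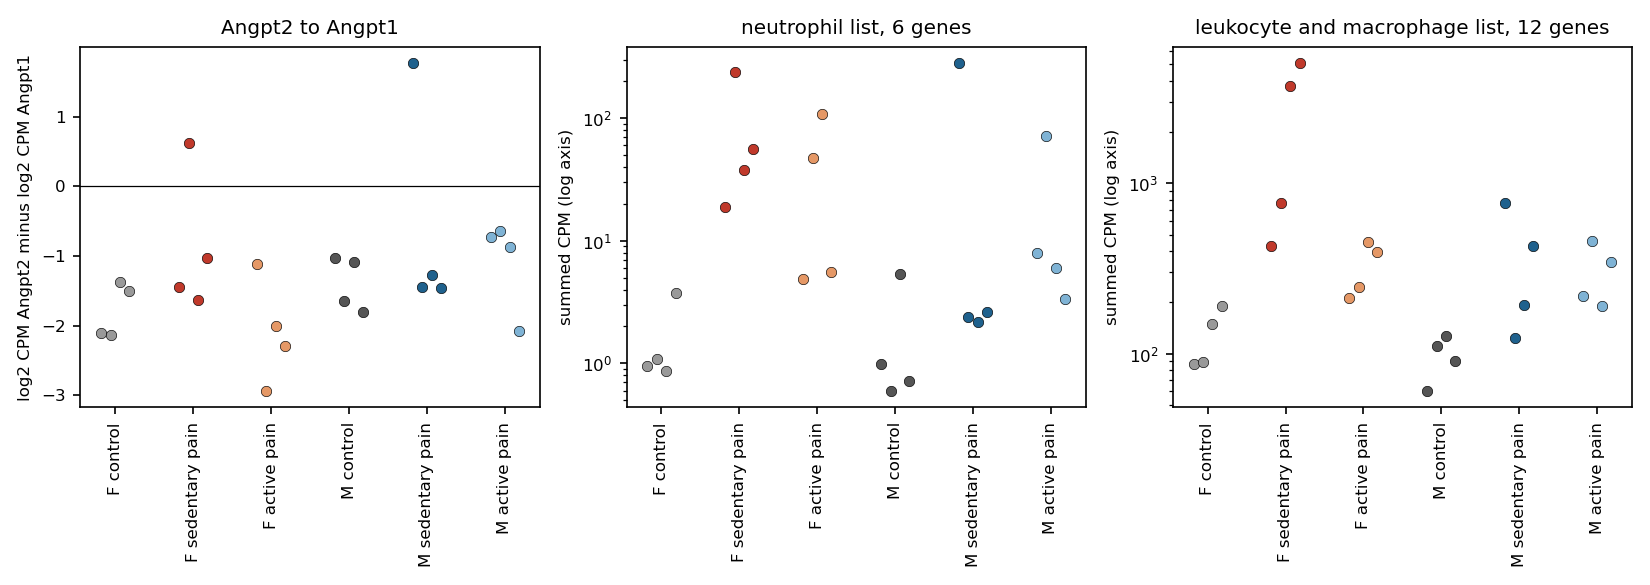
Log2 ratio of Angpt2 to Angpt1 CPM (left panel), summed CPM of 6 neutrophil genes (middle panel, log axis) and of 12 leukocyte and macrophage genes (right panel, log axis), with 1 point for each of the 24 samples in 6 groups, replicates 1 to 4 from left to right. Female sedentary pain replicate 2 and male sedentary pain replicate 1 lie above 0 in the left panel and highest in the middle one, while female sedentary pain replicates 3 and 4 are highest in the right one.

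Relative to Cdh5 in the same sample, which was itself lower, 2 of the other 9 genes had log2 ratios whose female sedentary pain samples did not overlap the controls, beside 46.1% of all genes, so this count does not stand out. Tie1 was higher relative to Cdh5 by 0.45 and Angpt2 by 0.95, and the ratios of the other 7 genes overlapped. These ratios show unequal differences within a library and carry no test.

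The 4 calls depended on the model and on which samples were used. DESeq2 called the same 4 genes, beside 5773 of all 14502, so that 4 of 10 does not stand out from the background. With 1 surrogate variable in the model no gene of the set was called, and the differences were -0.30 for Vegfa (edgeR adjusted p = 0.734), -0.22 for Kdr (0.888), -0.31 for Flt1 (0.568) and -0.22 for Cdh5 (0.807). Replicates 1 and 2 alone called none either. Without pain replicate 4 only Vegfa and Flt1 were called. With a correction for GC content and length, 7 of the 10 were called lower, the added ones being Vegfb, Tek and Angpt1. That correction moved the median of all genes from -0.02 to -0.14 and gave 2270 calls higher and 2906 lower. Tie1 was called only when that correction was combined with the replicate block, at -0.51 (edgeR adjusted p = 0.0301). Summed CPM of leukocyte and neutrophil genes was above all controls, and that of pericyte genes below all controls, in each of the 4 pain samples. The summed endothelial activation CPM was 36.3, 135, 99.1 and 123 against 21.8 to 42.2 in controls, with replicate 1 among them, and adipocyte sums of the groups overlapped. What part these had in the fall of Vegfa, Kdr, Flt1 and Cdh5 was not tested.

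**Figure D4:**
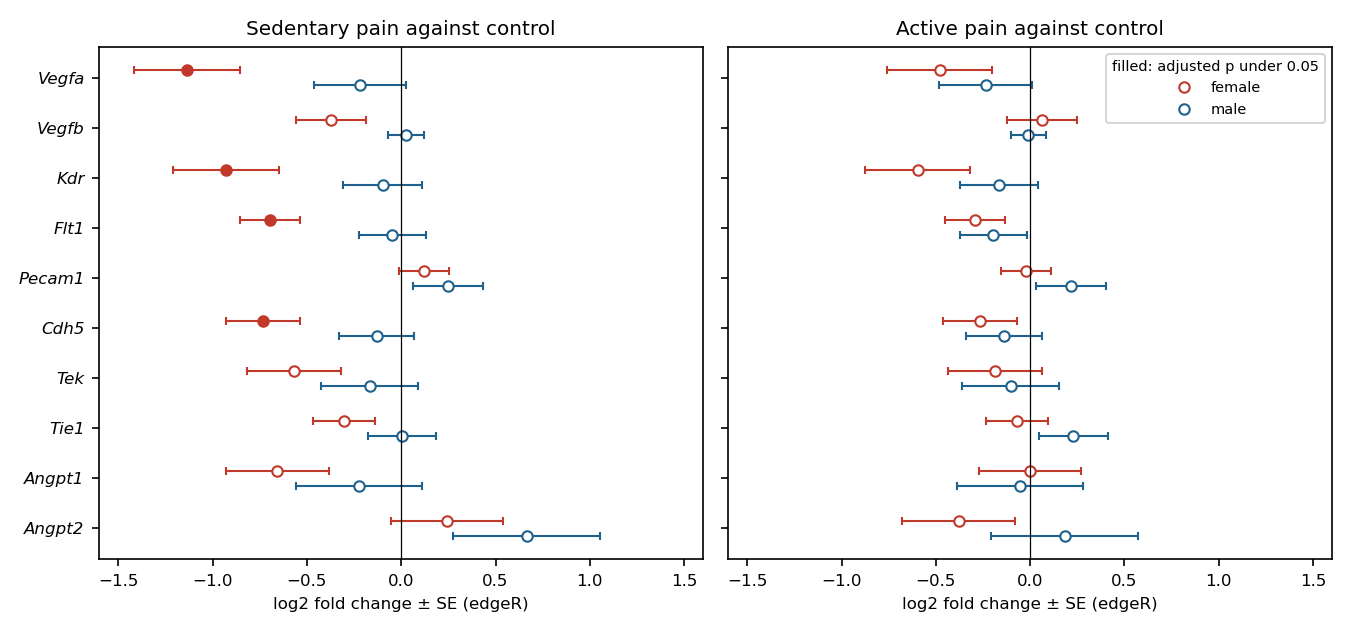
Log2 fold changes of the 10 genes with their SE (edgeR) in sedentary pain against control (left) and active pain against control (right), red for females and blue for males, filled where the adjusted p was under 0.05. Filled points are Vegfa, Kdr, Flt1 and Cdh5 in female sedentary pain.

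Running before the pain procedure was examined by setting active pain against control and against sedentary pain. Against female controls no gene of the set passed in edgeR or DESeq2 or had an unadjusted p under 0.05, where edgeR called 0% of all genes and 1020 genes had an unadjusted p under 0.05. No gene of the set had groups that did not overlap, beside 5.44% of all genes. Female active pain samples had 46.5, 50.4, 44.6 and 66.0 CPM of Vegfa, and only replicate 4 reached the lowest control. The estimate was -0.48 ± 0.28 (log2, 95% interval -1.08 to 0.12, edgeR adjusted p = 0.826). Kdr had 22.1, 22.4, 12.8 and 28.6 CPM, with 3 of 4 samples below all controls, and an estimate of -0.60 ± 0.28 (log2, 95% interval -1.21 to 0.01, edgeR adjusted p = 0.719). Flt1 had 27.2, 32.8, 22.1 and 31.5 CPM, with 1 sample among the controls. Cdh5 had 44.0, 54.0, 35 and 59.7 CPM, with 2 samples among them. Replicate 3 was the lowest active sample for Vegfa, Kdr, Flt1, Cdh5, Tek and Tie1. The remaining genes had estimates between -0.38 and 0.06. The intervals of Vegfa and Kdr hold both 0 and a fall of 1 on the log2 scale, so 4 samples a group do not tell these apart.

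Female active pain against sedentary pain likewise gave no call among the 10 genes in edgeR or DESeq2, beside 11.9% of all genes called by edgeR and 3010 of 14502 by DESeq2. Here 5 of the 10 genes, and 4679 of all 14511, had an unadjusted p under 0.05. The 5 were all higher in active animals: Vegfa by 0.66 ± 0.28 on the log2 scale (edgeR adjusted p = 0.127), Vegfb by 0.43 ± 0.19 (0.133), Flt1 by 0.40 ± 0.16 (0.104), Cdh5 by 0.47 ± 0.20 (0.125) and Angpt1 by 0.66 ± 0.27 (0.122). Vegfb had 121, 92.9, 102 and 106 CPM and Angpt1 6.56, 14, 10.9 and 11.6 CPM in the active samples. No gene of the set had groups that did not overlap, beside 11.8% of all genes. Sedentary pain replicate 1 held the highest sedentary value of Vegfa, Kdr, Flt1, Cdh5, Tie1 and Angpt1, and without it Vegfa, Flt1 and Cdh5 passed the test. This comparison shares its sedentary pain samples with the one against control, so the directions are not independent of it.

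In males no gene of the set passed in any of the 3 comparisons in edgeR or DESeq2, and none had an unadjusted p under 0.05. Of all 14404 genes edgeR called 0% in each of the 3, and 1273, 1045 and 121 had an unadjusted p under 0.05 in sedentary pain against control, active pain against control and active against sedentary pain. DESeq2 called 270, 127 and 0 of 14233 genes in the same order. Groups of all 10 genes overlapped in each, beside 8.07%, 10.4% and 0.653% of all genes that did not overlap. Vegfa had 94.9, 84.5, 76.2 and 95.0 CPM in male controls, 37.3, 99.7, 77.2 and 83.1 CPM in sedentary pain, and 59.7, 74.2, 71.2 and 91.8 CPM in active pain. Sedentary pain replicate 1 was far below every other male sample. Kdr had 37.8, 27.5, 31.8 and 23.9 CPM in controls, 18.9, 35.3, 26.0 and 31.4 CPM in sedentary pain, and 22.3, 23.5, 32.3 and 29.3 CPM in active pain. Flt1 ranged from 27.4 to 37.9 CPM in controls, 22.4 to 34.8 CPM in sedentary pain and 22.5 to 32.6 CPM in active pain. Replicate 1 was again the lowest sedentary sample for Kdr and Flt1, and also for Cdh5 (39.2 CPM), Tek (8.15 CPM) and Angpt1 (2.70 CPM), and the highest for Pecam1 (65.4 CPM) and Angpt2 (9.37 CPM).

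The male sedentary estimates were -0.22 ± 0.25 for Vegfa (log2, 95% interval -0.76 to 0.32), -0.10 ± 0.21 for Kdr and -0.05 ± 0.18 for Flt1 (95% interval -0.44 to 0.34). Cdh5 stood at -0.13 ± 0.20 and Angpt2 at 0.66 ± 0.39 (95% interval -0.19 to 1.52, edgeR adjusted p = 0.618). Without sedentary pain replicate 1 the estimates were 0.00 for Vegfa and 0.01 for Angpt2. In that library mitochondrial genes took 4.53% of counts, against 10.4% to 11.3% in the other 3 sedentary pain samples. Its leukocyte sum was 767 CPM, against 123, 194 and 426 CPM in the other 3, and its pattern of low Vegfa, Kdr, Tek and Angpt1 and high Angpt2 was not seen in them. Male active pain estimates lay between -0.24 and 0.23 against control.

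Whether the sexes differed was tested as an interaction over all 24 samples. The male minus female difference in the sedentary pain effect was above 0 for all 10 genes, with a median of 0.39, and no gene passed, beside 0% of all genes called. The largest was 0.88 ± 0.38 for Vegfa (log2, 95% interval 0.08 to 1.68, edgeR adjusted p = 0.479), then 0.79 ± 0.36 for Kdr (0.488) and 0.62 ± 0.24 for Flt1 (0.447). These 3 had an unadjusted p under 0.05, as had 1446 of all genes, and DESeq2 called none of the 10 and 15 of all genes. Flt1 passed without the 2 male libraries that stood apart (edgeR adjusted p = 0.0493) and in replicates 3 and 4 alone (0.0454). The calls in females and their absence in males therefore do not show that the sexes differ. For active pain against control and active against sedentary pain the interaction also gave no call among the 10, beside 0% of all genes in each. At an unadjusted p under 0.05 none of the 10 and 307 of all genes stood out in the first, and Vegfb, Flt1 and 2224 of all genes in the second, while DESeq2 called none of the 10 in either and 3 and 133 of all genes.

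Between controls of both sexes no gene of the set passed, beside 2.83% of all genes, and none had an unadjusted p under 0.05 or was called by DESeq2. Angpt1 was the only one whose groups did not overlap, beside 22.3% of all genes: it had 7.03, 7.62, 7.09 and 8.24 CPM in males and 10.8, 11.9, 9.41 and 11.1 CPM in females. All 4 males lay below all 4 females, with an estimate of -0.53 ± 0.31 (log2, male minus female, edgeR adjusted p = 0.437).

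Beside the 10 genes, other lists were counted in female sedentary pain against control, where 33.5% of all genes were called, 19.6% higher and 13.9% lower. Fewer list genes were called in some alternatives. With replicates 1 and 2 alone, 8 leukocyte genes, 2 platelet genes and 1 gene each of the signalling, neutrophil and dividing cell lists were called. With 1 surrogate variable 2 leukocyte genes and 1 signalling gene were called. All other lists had 0 calls in both, which includes the endothelial, hypoxia and pericyte lists. Of 20 other genes of VEGF and angiopoietin signalling 5 were higher and 4 lower, 45% in all, and the other 11 did not pass. Higher were Dok2, an adaptor downstream of Tek and also a leukocyte gene, by 3.74 ± 0.56 on the log2 scale (edgeR adjusted p = 0.00260), Hspb1, a small heat shock protein downstream of VEGF signalling, by 1.72 ± 0.35 (0.00550), and the kinase Akt1 by 0.50 ± 0.14 (0.0183). Lower were Plcg1, the phospholipase coupled to Kdr, at -0.43 ± 0.11 (0.0135), Ptprb (VE-PTP, the phosphatase of Tek and Cdh5) at -1.0 ± 0.26 (0.0162) and Pik3r1 at -1.05 ± 0.32 (0.0288). The list's median was 0.17. Nrp2, Svep1 and Foxo1 complete the 9 and are named after their values were seen. The higher count was 3 without pain replicate 4 or control replicate 1 or 2, and the lower count was 2 without pain replicate 4 or control replicate 4.

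Of 25 other endothelial identity genes 3 were higher and 4 lower, which at 28% is not above the share of all genes, with a median of -0.17. With the GC and length correction 1 was higher and 9 lower, so the balance of directions depended on the scaling. Ushbp1 at -0.96 ± 0.17 (log2, edgeR adjusted p = 0.00323), the transcription factor Sox7 at -1.33 ± 0.26 (0.00488) and the adhesion receptor Adgrl4 at -0.97 ± 0.24 (0.0125) were lower, along with Cyyr1, named after its value was seen. Ecscr at 0.78 ± 0.22 (0.0214), the TGF-beta family receptor Acvrl1 at 0.83 ± 0.27 (0.0355) and Icam2 at 0.82 ± 0.26 (0.0355) were higher. The list's summed CPM was 333 to 435 in pain and 327 to 402 in controls. The count of higher calls was 5 without pain replicate 1, 1 without control replicate 1, 3 or 4, and 0 without pain replicate 4 or control replicate 2.

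Among 17 tested tip cell and Notch genes 3 were higher and none lower in edgeR, a smaller share than over all genes. DESeq2 called 3 higher and 2 lower, and the GC and length correction 2 higher and 2 lower. The 3 were the pericyte attractant Pdgfb at 0.67 ± 0.14 (log2, edgeR adjusted p = 0.00547), the fenestral protein Plvap at 0.70 ± 0.22 (0.0290) and the chemokine receptor Cxcr4, which leukocytes also carry, at 1.6 ± 0.50 (0.0312). The higher count was 1 without pain replicate 2 or 4 or control replicate 1, 2 or 3, and 4 genes of this list were lower without pain replicate 1.

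Endothelial activation genes, which include adhesion molecules that let leukocytes bind the vessel wall along with other inducible genes, had 5 of 7 higher and a median of 1.93: Selp (P-selectin) at 1.93 ± 0.30 (log2, edgeR adjusted p = 0.00260), Ackr1 at 1.93 ± 0.37 (0.00458) and Icam1 at 3.39 ± 0.66 (0.00486), with Vcam1 and Ptgs2 named after their values were seen. In the same comparison all 12 leukocyte and macrophage genes and 2 of 3 tested platelet genes were also higher. What part leukocyte or platelet RNA had in the activation genes was not tested. The hypoxia response list, which includes regulators of Vegfa, had 5 higher and 4 lower of 18, a share of 50%, and a median of -0.02. With the GC and length correction 2 were higher and 4 lower. Ero1a at 1.12 ± 0.26 (0.00951), the glucose transporter Slc2a1 at 1.37 ± 0.32 (0.00991) and P4ha1 at 0.49 ± 0.12 (0.0131) were higher. Bnip3 at -0.71 ± 0.13 (0.00416), Epas1 (HIF-2 alpha, an endothelial hypoxia factor) at -0.86 ± 0.18 (0.00608) and Pdk1 at -0.78 ± 0.17 (0.00734) were lower. The higher count was 3 without pain replicate 2 or 4 or control replicate 2 or 3. Adm and Hk2 among the higher genes and Egln1 among the lower ones are named after their values were seen.

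Pericyte and smooth muscle genes, of the cells that wrap vessels, had 6 of 12 lower, none higher and a median of -0.69. The calls were lost with replicates 1 and 2 alone and with 1 surrogate variable. Mylk at -0.93 ± 0.18 (log2, edgeR adjusted p = 0.00509), Myh11 at -1.12 ± 0.23 (0.00619) and Rgs5 at -0.72 ± 0.18 (0.0117) had the smallest p. The list's summed CPM was 508, 408, 410 and 312 in sedentary pain replicates 1 to 4 and 610 to 708 in controls, without overlap. Without pain replicate 4 or control replicate 2 the count was 3. Of 12 angiogenesis inhibitors Timp3 was lower at -0.70 ± 0.20 (0.0248) and the other 11 did not pass. That call was lost without pain replicate 2 or 4 or control replicate 4. In the lymphatic list 1 of 5 tested genes passed, Pdpn at 3.47 ± 0.59 (0.00314), which fibroblasts and macrophages can also carry, and Ccl21a had 0 counts in all groups.

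All 12 leukocyte and macrophage genes were higher in female sedentary pain, with a median of 4.51, among them Itgam at 5.03 ± 0.69 (log2, edgeR adjusted p = 0.00260), Cd68 at 4.44 ± 0.52 (0.00225) and Fcgr1 at 5.99 ± 0.90 (0.00260). Of 5 tested neutrophil genes 4 were higher, led by Csf3r at 5.93 ± 0.90 (0.00260), and all 5 dividing cell genes tested were higher, led by Top2a at 4.47 ± 0.72 (0.00285). Of 3 tested platelet genes Pf4 and Ppbp were higher, and of 7 fibroblast genes Col1a1. Adipocyte genes had 5 of 6 lower and a median of -3.01, and their summed CPM varied from 164 to 3808 between female controls. Muscle fibre genes had 1 of 10 lower (Myh2) in edgeR and 3 in DESeq2, with 0 to 9 lower over the alternatives, and a median of -0.43. None of 5 erythroid genes passed. Without pain replicate 2 the neutrophil count was 2. The adipocyte count was 0 without pain replicate 4, 1 without pain replicate 2 or control replicate 3 or 4, and 3 without pain replicate 1 or active pain replicate 4. Leaving out single libraries also moved the platelet, fibroblast and muscle fibre counts, of 2, 1 and 1, by more than 1.5 times. The leukocyte count was 12 in each of those fits, 8 with replicates 1 and 2 alone and 2 with 1 surrogate variable.

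In active against sedentary females, where 11.9% of all genes were called, several of these lists had calls in the opposite direction. The 10 genes had no call, but 8 of their estimates were above 0 and 2 below, with a median of 0.39. Both comparisons share their sedentary pain samples, so opposite directions are not independent. Leukocyte genes were lower for 10 of 12, with Cd68 at -2.28 ± 0.47 (log2, edgeR adjusted p = 0.0328), and endothelial activation genes for 3 of 7, with Icam1 at -2.54 ± 0.63 (0.0331) and Selp at -1.16 ± 0.29 (0.0333). Of the other signalling genes Dok2 at -2.44 ± 0.53 (0.0328) and Nrp2 at -1.45 ± 0.40 (0.0411) were lower. Ushbp1 was higher at 0.59 ± 0.17 (0.0440) and Rgs5 at 0.60 ± 0.18 (0.0470). The hypoxia response list had 2 higher, Bnip3 at 0.53 ± 0.13 (0.0332) and Egln1 at 0.63 ± 0.16 (0.0333), and 3 lower, Slc2a1 at -1.25 ± 0.32 (0.0333), P4ha1 at -0.44 ± 0.12 (0.0403) and Ero1a at -0.92 ± 0.26 (0.0418). Dividing cell genes were lower for 4 of 5, with Top2a at -2.73 ± 0.65 (0.0328). Pdgfb was lower at -0.50 ± 0.14 (0.0389) and Pdpn at -1.99 ± 0.55 (0.0403). All calls of this comparison were fragile: edgeR called 1730 genes in all, 0 without active pain replicate 1, 2 or 4 or sedentary pain replicate 4, 3 without sedentary pain replicate 3, and 0 with only the compared groups in the fit. In the other 4 comparisons within a sex edgeR called no list gene. DESeq2 called 7 leukocyte genes higher in male sedentary pain, 5 in male active pain and 3 in female active pain against control, where it also called 3 neutrophil genes higher. Over all genes DESeq2 called 270 and 127 of 14233 in the male comparisons and 125 of 14502 in the female one. With 1 surrogate variable 1 leukocyte gene was called in each of these 3.

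**Figure D5:**
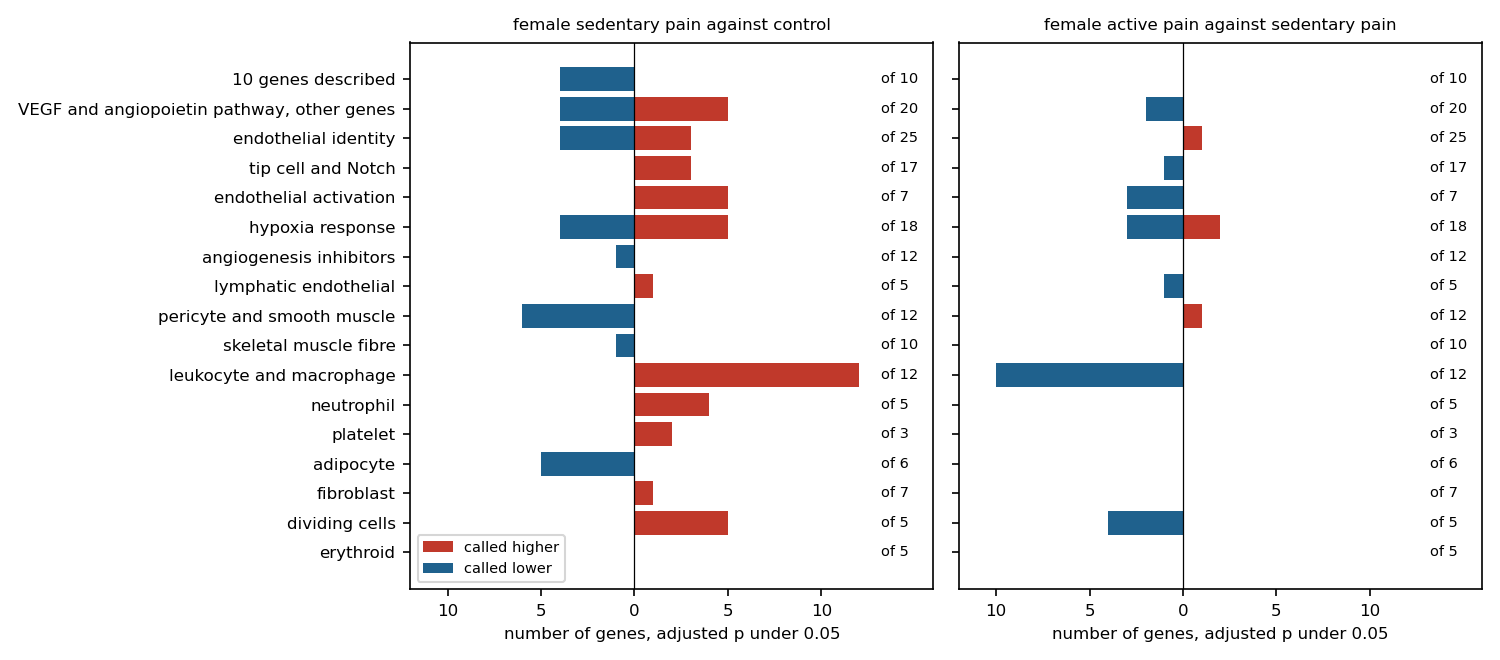
Number of genes of each list with an adjusted p under 0.05, higher to the right and lower to the left of 0, in female sedentary pain against control (left panel) and female active against sedentary pain (right panel), with the number tested at the right. In the left panel all 12 leukocyte genes are higher and 6 of 12 pericyte genes lower. In the right panel 10 leukocyte genes are lower and the 10 genes described have no call. Of all genes 33.5% were called in the left comparison and 11.9% in the right one.

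Likeness of pattern was measured as the root mean square difference between the log2 CPM deviations of 2 genes over the 24 samples, among 11150 genes. The closest pair within the set was Flt1 and Cdh5, at 0.126, and the farthest was Angpt1 and Angpt2, at 0.935. Outside the set the genes most like Cdh5 were the laminin receptor subunit Itga6 (0.133), the junction protein Afdn (0.140) and Caskin2 (0.153). Those most like Vegfa were Kbtbd13 (0.213), Lrrc14b (0.213) and Mpc1, a subunit of the mitochondrial pyruvate carrier (0.219), all closer to it than its nearest gene of the set, Kdr (0.318). The nearest to Angpt2 were Tm4sf1 (0.263), Sumf2 (0.270) and the Wnt receptor Fzd5 (0.270), and its nearest gene of the set was Pecam1 at 0.425. These distances are descriptions over samples that share libraries, depth and groups.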

How the data were processed

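Whole-muscle RNA of 24 samples was measured by paired-end sequencing of stranded TruSeq libraries, per the labels' protocols. The deposited values are whole-number read counts per Ensembl gene, with no normalization by the authors found in them. The submitters' processing notes name HISAT2 2.1.0, Salmon 0.9.1, featureCounts and DESeq2 1.24.0 and the builds mm10 and GRCm38.p6. The strand setting of the counting is not given in the sources used here. Positions and exon lengths were taken from GENCODE M21 (GRCm38).

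Samples were grouped by their labels. Counts were scaled by TMM and filtered with filterByExpr (minimum count 10). Two-sided quasi-likelihood F tests of edgeR 4.0.16 (R 4.3.3, robust) were fitted to the 12 samples of each sex, following the series' design text, and to all 24 for the sex differences. P-values were adjusted by Benjamini-Hochberg over all genes tested, at 0.05. The fitting code was run on simulated counts with known changes and the same spread in every gene and group. That simulation does not cover the uneven spread seen among the real samples. CPM per sample used TMM factors, and ratios and likeness used a prior count of 2. Python 3.11.15 with NumPy 2.4.6, pandas 2.3.3, SciPy 1.17.1 and matplotlib 3.10.9 was used for the rest.

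The members and lists were chosen with earlier results of these data known. All 10 genes were described. From each other list up to 3 genes in each direction past the threshold, smallest p first, were named, and for likeness the 3 nearest genes (mean log2 CPM 1 or more). Alternatives were RLE scaling, DESeq2 1.42.0, other filters and groups in the fit, the replicate block, the library-number range as a term, 1 surrogate variable (sva 3.50.0), no mitochondrial genes, a correction for GC content and length alone and with the block, each range alone and each sample left out. Leaving out the 2 male libraries that stood apart was added after seeing the data.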

Additional observations from a re-analysis of the deposited data

Results flagged for a closer look

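In 2 of the 60 groups of 4 samples formed by the 10 genes, 1 sample lay far from the others by Dixon's criterion, where chance gives about 3. Both concern Angpt2, the Tek ligand released by endothelium. Female sedentary pain replicate 2 had 6.42 CPM of Angpt2, and male sedentary pain replicate 1 had 9.37 CPM. These 2 libraries also had the highest summed neutrophil CPM, 238 and 280. Next were female active pain replicate 3 at 108, with 2.66 CPM of Angpt2, and male active pain replicate 2 at 71.3, with 4.24. The part of neutrophil RNA in the Angpt2 level was not tested.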

How the results depend on the processing

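In female sedentary pain against control, the count of 4 genes became 0 with replicates 1 and 2 alone, 0 with 1 surrogate variable and 7 with a correction for GC content and length, and ranged from 2 to 5 when 1 sample was left out. Active against sedentary females gave 1 call in place of 0 with replicates 3 and 4 alone (Vegfb), 1 with the GC and length correction (Angpt1), 1 with that correction and the replicate block (Vegfb), and 0 to 3 with 1 sample left out. The sex difference in the sedentary pain effect gave 1 (Flt1) with replicates 3 and 4 alone and 1 without the 2 male libraries that stood apart, and that of active against sedentary pain gave 1 (Vegfb) with replicates 3 and 4 alone. Male against female controls gave 1 (Angpt1) with 1 surrogate variable. Under 1 surrogate variable the sign turned for Acvrl1 (-0.24), Icam2 (-0.091) and Nrp2 (-0.12) in female sedentary pain and for C1qa (0.36), Csf1r (0.0035) and Icam1 (0.023) in active against sedentary females. Of the 10 genes it turned for Vegfb (0.036) and Pecam1 (-0.17) in female sedentary pain against control and for Vegfa (-0.02), Kdr (-0.28) and Pecam1 (0.10) in active against sedentary females. With replicates 3 and 4 alone it turned for Ppbp (-0.32) and for Angpt2 in female sedentary pain (-0.45), as it did for Angpt2 without pain replicate 2 (-0.11). The causes were not tested.

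Over all genes, female sedentary pain gave 4867 calls (2847 higher, 2020 lower), 238 with replicates 1 and 2 alone, 61 with 1 surrogate variable, and 2486 to 6674 with 1 sample left out. The GC and length correction gave 2270 higher and 2906 lower. Residual correlations of same-numbered samples ranged from -0.30 to 0.39 in females and from -0.65 to 0.57 in males, which did not show pairing. They were not set against differently numbered samples, so they do not settle whether samples were paired. With the replicate block the same 4 genes were called and Vegfa stood at -1.18. Low counts limit Angpt2, at 50 to 232 reads a sample.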
